A study of Mus musculus with 8 samples.

Results

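AP-1 is a family of transcription factors that bind DNA as pairs joined through a leucine zipper. The genes described here were 10 members and close relatives of that family, Fos, Fosb, Fosl1, Fosl2, Jun, Junb, Jund, Batf, Atf3 and Maff, taken by symbol from the 24346 genes with a deposited value. The members were chosen by family with the measured changes of Fos and its relatives under red blood cells (RBCs) in view, so their values are given as a description, with counts past a threshold but without p-values. RNA was sequenced from 2 kinds of wild-type C57BL/6 mouse bone marrow cells. LSK cells are the lineage-negative, Sca-1-positive and c-Kit-positive fraction that holds stem cells and early progenitors. HSCs are the part of it that lacks CD48 and carries CD150. Each kind was cultured for a day with thrombopoietin and stem cell factor, either alone or together with RBCs that had been passed through a leukocyte filter and irradiated, and CD45-positive cells were then sorted after hemolysis. Each of the 4 groups had 2 libraries, and no source states that these came from separate animals or cultures, so the p-values measure only the spread between these libraries.

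AP-1 proteins sit at the end of the mitogen-activated kinase pathways and are among the first genes that cells transcribe after contact with growth factors, cytokines or stress. Fos proteins cannot pair with themselves and bind DNA with a Jun protein, while Jun proteins also pair with each other. Batf, Atf3 and the small Maf protein Maff use the same kind of zipper but lack the strong activation domain of Fos and often hold transcription down or redirect the complexes they join. In stem and progenitor cells of the marrow, Junb and Jund are known as brakes on proliferation and Fos as a gene of early activation.

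Fos lies on chromosome 12 at 85473890 to 85477273 on the plus strand, Jun on chromosome 4 at 95049034 to 95052222 on the minus strand and Junb on chromosome 8 at 84974484 to 84978718 on the minus strand (GENCODE M21, GRCm38, the assembly of the mm10 build). Maff lies on chromosome 15 at 79346621 to 79359076 on the plus strand. The libraries with RBCs lay above those without in both cell kinds for these 4 genes, and the 250 bases before their RefSeq start sites (GRCm38.p6) are therefore shown, read in the direction of the gene from chr12:85473640-85473889, chr4:95052223-95052472, chr8:84978749-84978998 and chr15:79347270-79347519. For Maff, which has 3 such windows, the one with the full TGACGTCA is shown. Capitals mark the motifs searched for, which were TGAGTCA, TGACGTCA, TGACATCA and TGACGT on both strands and TATAAA on the coding strand. TGACGT is also the first part of TGACGTCA.
Fos: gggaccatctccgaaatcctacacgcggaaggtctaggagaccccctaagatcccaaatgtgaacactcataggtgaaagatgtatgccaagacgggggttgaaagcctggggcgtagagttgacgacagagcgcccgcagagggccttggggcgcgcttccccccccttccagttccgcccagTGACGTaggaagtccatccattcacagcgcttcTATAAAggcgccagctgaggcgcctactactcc
Jun: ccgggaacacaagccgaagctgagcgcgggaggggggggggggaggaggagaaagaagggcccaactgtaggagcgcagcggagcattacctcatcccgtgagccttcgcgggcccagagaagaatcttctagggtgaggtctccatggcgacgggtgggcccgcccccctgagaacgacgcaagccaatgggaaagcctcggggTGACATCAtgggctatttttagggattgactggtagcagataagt
Junb: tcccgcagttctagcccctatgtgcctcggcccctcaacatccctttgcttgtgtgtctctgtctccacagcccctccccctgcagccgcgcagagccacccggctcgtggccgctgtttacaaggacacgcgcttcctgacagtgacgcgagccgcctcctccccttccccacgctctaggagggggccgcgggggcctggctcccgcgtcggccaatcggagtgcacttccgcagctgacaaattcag
Maff: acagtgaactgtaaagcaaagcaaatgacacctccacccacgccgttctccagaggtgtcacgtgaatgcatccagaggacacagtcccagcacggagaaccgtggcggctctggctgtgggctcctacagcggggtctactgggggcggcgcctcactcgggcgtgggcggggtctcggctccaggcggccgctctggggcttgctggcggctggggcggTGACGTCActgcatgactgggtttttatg
The Fos window held TGACGT at -66 to -61 and TATAAA at -33 to -28 from the start, motifs found in 6.47% and 7.59% of the 32851 windows of this length. The Jun window held TGACATCA, a variant of the AP-1 site known from Jun promoters, at -45 to -38, as did 2.93% of all windows. Junb held none of these letters in its window. The classical AP-1 site TGAGTCA, in 4.46% of all windows, was in none of the 11 windows of the 9 members with an entry, and TGACGTCA, in 1.55%, was in the Maff window shown, at -29 to -22. That Maff window was shown because it held TGACGTCA, so nothing is read from this match. Another Maff window held TGACATCA, at -45 to -38. TGACGT was also in the Batf window, at -98 to -93, and in reverse in the Atf3 window, at -8 to -3. Such matches describe the sequence and were not tested for binding.

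Each library came with 1 deposited FPKM value per gene, which counts sequenced fragments relative to transcript length and sequencing yield, a scale on which levels of different genes can be set side by side. Absolute depth is unknown, and relative depth, read from the steps between low values, ranged from 0.886 to 1.13, with replicate 1 of the LSK cells cultured alone set to 1. For 9 members (Maff was the exception) the values were whole multiples of a single step within 0.1 read, and the numbers of reads given below are these multiples, which are lower bounds if all 8 values share a factor. Kit (90.8 to 137 FPKM) and Ptprc, the gene of CD45 (38.3 to 50.6), were present in every library. The gene of CD150, Slamf1, lay between 5.50 and 10.7 FPKM in HSC libraries and between 3.09 and 4.63 in LSK libraries, and Cd48 was lower in HSCs (16.0 to 42.7) than in LSK cells (124 to 184) but not absent. In bulk libraries fewer cells of a type and less RNA per cell cannot be told apart.

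Without RBCs, the AP-1 genes of both cell kinds had the same leading order. Batf was highest, with 86.4 and 85.0 FPKM in HSCs and 63.0 and 57.7 in LSK cells, followed by Junb, Jund, Fosl1, Fos and Jun. Fos and Jun overlapped in LSK cells, and Jun and Fosl2 overlapped in HSCs. With RBCs, Junb stood above Batf in every library, Fos stood above Jun and Fosl1 in both cell kinds and above Jund in LSK cells, and Fosl1 stood below Fos and Jun in both. Fosb, Atf3 and Maff stayed at the low end, although Atf3 overlapped Fosl1 and Fosl2 in HSCs with RBCs. The 10 genes together summed to 187 and 176 FPKM in HSCs without RBCs and to 214 and 209 with RBCs, against 151 and 131 and then 200 and 223 in LSK cells.

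**Figure D1:**
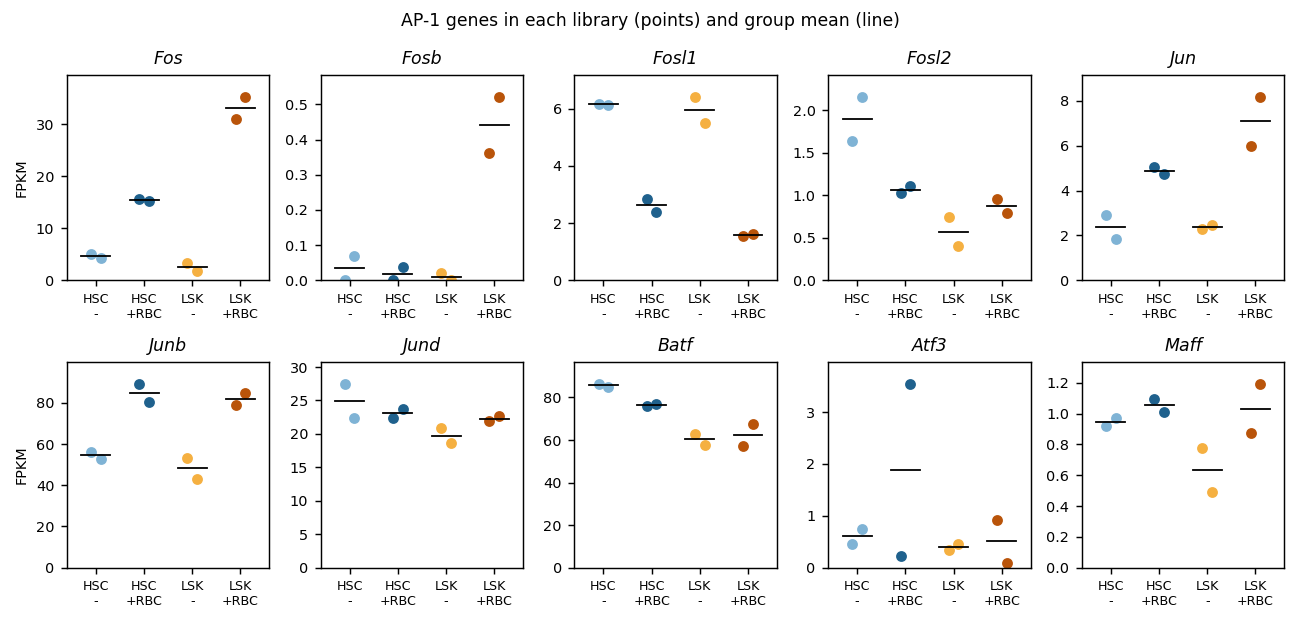
FPKM of the 10 AP-1 genes in each library, with 1 panel per gene and axes that start at 0; points are libraries and black lines the means of 2 libraries, for HSCs and LSK cells without (-) and with RBCs (+RBC). Fos points with RBCs (15.2 to 35.3 FPKM) lie above all those without (1.74 to 5.10), while those of Fosl1 with RBCs (1.55 to 2.85) lie below all those without (5.49 to 6.42).

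Fos encodes the prototype partner of Jun and is transcribed within minutes of a stimulus. In HSCs it measured 5.10 and 4.34 FPKM (142 and 99 reads) without RBCs and 15.7 and 15.2 (388 and 425 reads) with RBCs. LSK cells held 3.27 and 1.74 FPKM (81 and 48 reads) without RBCs and 30.9 and 35.3 (678 and 821 reads) with RBCs. The libraries did not overlap in either cell kind, and the LSK libraries were the lowest without RBCs and the highest with them. On the scale of log2(FPKM + 1), which understates changes of low values, Fos rose by 1.53 (SE 0.19) in HSCs and by 3.31 (SE 0.19) in LSK cells, and the ratios of the mean FPKM were 3.27 and 13.2. Among the 12003 genes tested, these were the 46th and the 12th largest increases. Counts of members past the threshold are given as a description, and nothing is read from them, since the choice of members used these contrasts. In HSCs Fos was the only 1 of the 8 tested members past the threshold of an adjusted p under 0.05 (limma, Benjamini-Hochberg) and at least a 2-fold change, which 0.775% of all tested genes passed. The same threshold was passed in LSK cells by 3 of 8 members, Fos, Jun and Fosl1, and by 1.01% of all tested genes. The count for HSCs was 2, with Fosl1 added, without the first HSC library with RBCs. Jun fell short in LSK cells, leaving 2, when the first or the second LSK library without RBCs or the second with RBCs was left out.

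The fitted difference of the RBC effects on Fos, HSCs minus LSK cells, was -1.79 (SE 0.28). Neither this difference nor that of any other member passed the threshold in limma, which 0.108% of all tested genes did, and 2 members had an unadjusted p under 0.05, as had 12.5% of all tested genes. The Fos difference passed with quantile normalization, and also without the first LSK library without RBCs, where it was -2.11.

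Fosl1, which encodes FRA-1, a Fos protein without a strong activation domain, went the other way. It measured 6.16 and 6.13 FPKM (136 and 111 reads) in HSCs without RBCs and 2.85 and 2.39 (56 and 53 reads) with RBCs. LSK libraries held 6.42 and 5.49 FPKM (126 and 120 reads) without RBCs and 1.55 and 1.63 (27 and 30 reads) with RBCs. Without RBCs the cell kinds overlapped, and in each the libraries with RBCs lay below those without. Fosl1 fell by 1.42 (SE 0.15) in LSK cells, the 21st largest decrease of the 12003 genes, while the fold change in HSCs was -0.98 (SE 0.15). The ratios of the mean FPKM were 0.426 in HSCs and 0.267 in LSK cells, and with a pseudocount of 0.5 or 0.1 in place of 1 the HSC value was -1.10 or -1.20 and past the threshold. Part of Fosl1 (chromosome 19, 5447547 to 5455946, plus strand) overlaps Ccdc85b on the minus strand, and without strand the reads of both cannot be told apart there. Ccdc85b had a fold change of -0.37 (SE 0.15) in HSCs and -0.54 (SE 0.15) in LSK cells on the same scale, neither past the threshold, and its part in the values of Fosl1 was not tested.

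The balance within the Fos family changed accordingly. Without RBCs, Fosl1 made up 47.8% and 48.3% of the summed Fos-family FPKM in HSCs and 61.4% and 72.0% in LSK cells. Fos made up 80.2% and 81.1% in HSCs with RBCs and 91.5% and 92.3% in LSK cells with RBCs. The ratio of Fos to Fosl1 was between 0.317 and 0.828 in the 4 libraries without RBCs, between 5.49 and 6.36 in HSCs with RBCs and between 19.9 and 21.7 in LSK cells with RBCs. Jun-family FPKM exceeded Fos-family FPKM in every library, by 5.84-fold to 8.42-fold except in LSK cells with RBCs, where the ratio was 3.17 and 3.03.

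**Figure D2:**
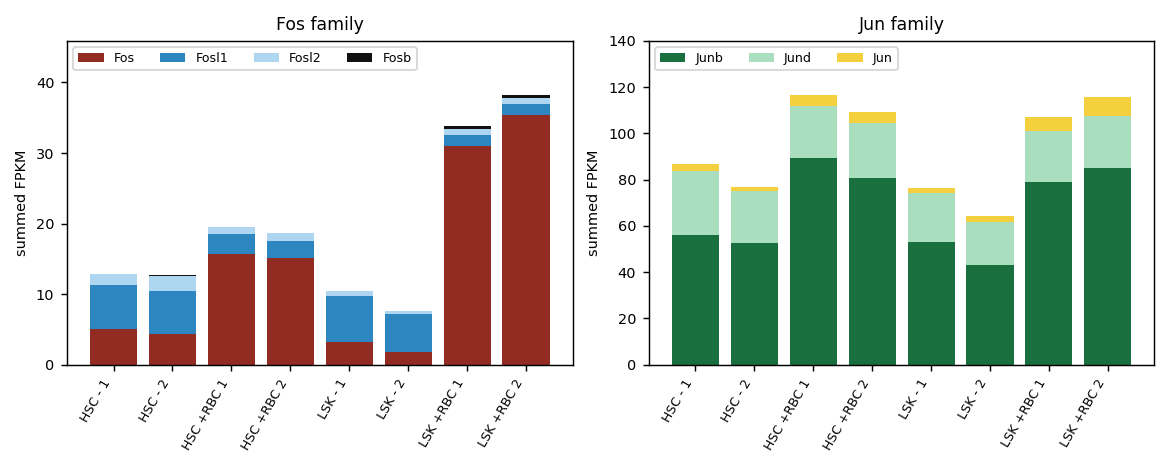
Summed FPKM of the Fos family (left) and the Jun family (right) in each of the 8 libraries, as stacked bars from 0 with 1 colour per gene; labels give the cell kind, the RBC condition (-, +RBC) and the replicate. Fosl1 is the largest Fos-family segment in every library without RBCs and Fos in every library with RBCs, while Junb holds 64.9% to 76.5% of each Jun-family bar.

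Fosl2, which encodes FRA-2, was lower with RBCs in HSCs and higher with RBCs in LSK cells, at low levels. HSCs held 1.64 and 2.16 FPKM (137 and 148 reads) without RBCs and 1.02 and 1.11 (76 and 93 reads) with RBCs. LSK cells held 0.740 and 0.399 FPKM (55 and 33 reads) without RBCs and 0.956 and 0.787 (63 and 55 reads) with RBCs. Neither pair of groups overlapped in FPKM, with fold changes of -0.48 (SE 0.19) and 0.26 (SE 0.19) that did not pass the threshold. Fosl2 entered the tested genes through the HSC libraries, since all 4 LSK values were under the minimum of 1 FPKM.

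Fosb, an early-response Fos gene, was below the filter and was not tested. Its reads numbered 0 and 3 in HSCs without RBCs, 0 and 2 in HSCs with RBCs and 1 and 0 in LSK cells without RBCs, against 15 and 23 in LSK cells with RBCs (0.361 and 0.522 FPKM). Only this group stood above the others, and the fold change is not given because of the few reads in the rest. Atf3, a stress-induced repressor and Jun partner, was below the filter as well and varied widely between replicates with RBCs. It had 5 and 93 reads (0.216 and 3.54 FPKM) in HSCs with RBCs and 19 and 2 reads (0.925 and 0.0918 FPKM) in LSK cells with RBCs. Its groups without RBCs held 12 and 16 reads in HSCs and 8 and 12 reads in LSK cells, within the range of both groups with RBCs.

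**Figure D3:**
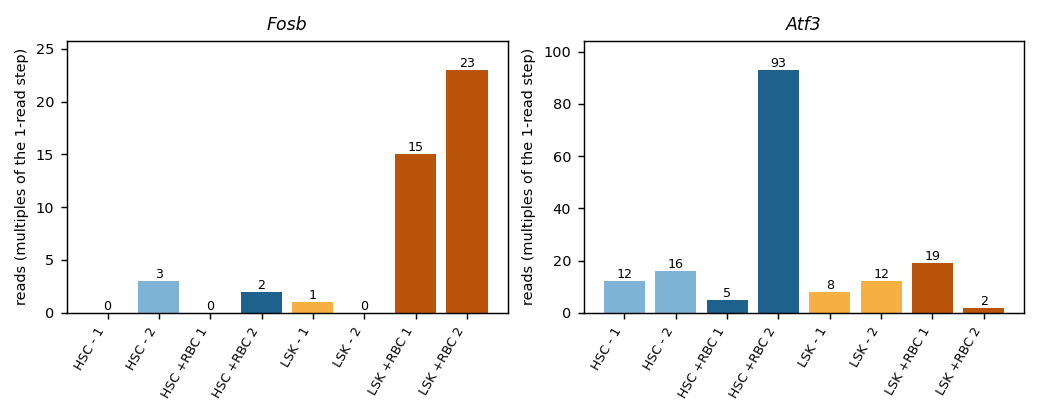
Reads of Fosb (left) and Atf3 (right) in each library, as bars from 0 with the number above each; reads are whole multiples of the value of 1 read and colours mark the 4 groups. Fosb reaches 15 and 23 reads in LSK cells with RBCs and at most 3 elsewhere, and Atf3 has 93 reads in a single HSC library with RBCs and at most 19 elsewhere.

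Jun encodes the Jun protein with the strongest activation domain. HSCs held 2.91 and 1.83 FPKM (128 and 66 reads) without RBCs and 5.03 and 4.72 (197 and 209 reads) with RBCs. LSK cells held 2.30 and 2.48 FPKM (90 and 108 reads) without RBCs and 6.0 and 8.19 (208 and 301 reads) with RBCs. Groups with and without RBCs did not overlap. Jun rose by 1.24 (SE 0.20) in LSK cells, and its fold change in HSCs was 0.82 (SE 0.20), ranking 88th and 176th from the top among all tested genes. The call in LSK cells was also lost when every gene above 0 in at least 1 library was tested.

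Junb, the most abundant Jun gene, measured 56.2 and 52.8 FPKM in HSCs without RBCs and 89.2 and 80.7 with RBCs. In LSK cells it measured 53.2 and 43.2 FPKM without RBCs and 79.1 and 85.0 with RBCs. Both cell kinds reached a similar level, with fold changes of 0.63 (SE 0.10) and 0.76 (SE 0.10) that stayed under 2-fold and, in terms of mean FPKM, ratios of 1.56 and 1.70. The minus-strand Junb overlaps the end of Prdx2 on the plus strand, and Prdx2 lay between 449 and 547 FPKM with fold changes of -0.13 (SE 0.07) and -0.04 (SE 0.07), neither past the threshold. Jun and Jund also have an overlapping gene on the other strand, Junos and Gm11175, whose reads cannot be told apart there. Jund, the Jun gene of resting cells, ranged only from 18.6 to 27.5 FPKM over all 8 libraries, with fold changes of -0.10 (SE 0.11) in HSCs and 0.17 (SE 0.11) in LSK cells.

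Batf, known for its partnership with IRF proteins in lymphocytes, measured 76.1 and 76.8 FPKM in HSCs with RBCs, below both libraries without them, and 57.0 and 67.5 in LSK cells with RBCs, which overlapped those without. Its fold changes were -0.16 (SE 0.09) and 0.04 (SE 0.09). Maff, a small Maf protein that pairs with the NRF2 family, ranged from 0.492 to 1.19 FPKM, with fold changes of 0.08 (SE 0.18) in HSCs and 0.32 (SE 0.18) in LSK cells, and it entered the tested genes only through libraries with RBCs. Counting libraries without overlap in either direction, 7 of the 8 tested members were apart in HSCs and 7 in LSK cells, where 41.7% and 50.7% of all tested genes were. Nothing is read from these counts, since the members were chosen with these contrasts in view. They also include Maff, which was tested only because of libraries with RBCs, and Fosl2, which was tested only because of HSC libraries.

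**Figure D4:**
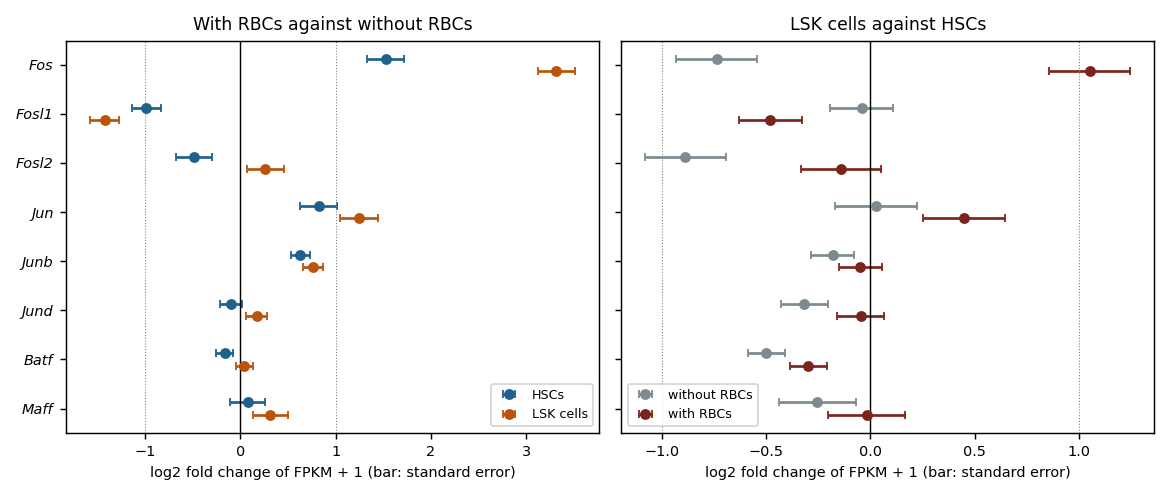
Log2 fold changes of FPKM + 1 for the 8 tested AP-1 genes, with RBCs against without in HSCs and LSK cells (left) and LSK cells against HSCs without and with RBCs (right); bars are standard errors of the limma fit and dotted lines mark 2-fold. Fos lies at 1.53 and 3.31 on the left and changes sign on the right, from -0.74 without RBCs to 1.05 with RBCs.

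The comparison of LSK cells with HSCs belongs to the pattern the members were picked for, so it too is given as a description, without p-values. Without RBCs, none of the 8 members reached the threshold of adjusted p under 0.05 (limma) and 2-fold, against 2.66% of all tested genes. Without the fold threshold 3 did, Fosl2, Fos and Batf, all lower in LSK cells, as did 14.2% of all tested genes in either direction. With an unadjusted p under 0.05 Jund was added, making 4, against 28.7% of all tested genes. The fold changes were -0.89 (SE 0.19) for Fosl2, -0.74 (SE 0.19) for Fos, -0.50 (SE 0.09) for Batf and -0.32 (SE 0.11) for Jund. Fosl2 had a ratio of mean FPKM of 0.300, and since it was tested only because of its HSC values, nothing is read from its count. Fos and Fosl2 reached 2-fold without the first LSK library without RBCs, and Fosl2 without the first HSC library without RBCs. Fosl1 (-0.04, SE 0.15) and Jun (0.03, SE 0.20) differed by less than their errors. Junb and Maff had fold changes of -0.18 (SE 0.10) and -0.26 (SE 0.18).

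With RBCs, Fos was higher in LSK cells than in HSCs by 1.05 (SE 0.19), the only 1 of the 8 members past the threshold, against 3.61% of all tested genes. It fell short of 2-fold without the second LSK library with RBCs (0.96) and with upper-quartile scaling (0.90). That scaling moved the median of all genes to -0.14 in this comparison. Batf (-0.30, SE 0.09) and Fosl1 (-0.48, SE 0.15) were lower in LSK cells without reaching 2-fold, and both passed without the fold threshold, as did 24.4% of all tested genes. Jun had a fold change of 0.45 (SE 0.20), and Fosl2, Junb, Jund and Maff had fold changes between -0.14 and -0.02. Batf libraries lay between 57.0 and 67.5 FPKM in LSK cells and between 76.1 and 86.4 in HSCs, without overlap in either condition.

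Markers of other cells were read beside these values. Of 12 neutrophil markers 11 were found, and they summed to 39.3 and 32.4 FPKM in HSCs without RBCs, 299 and 88.5 in HSCs with RBCs, and in LSK cells to 188 and 285 when cultured alone and 654 and 447 with RBCs. The sums were higher with RBCs in both cell kinds, as was Fos. Fos was at 15.7 and 15.2 FPKM in the HSC libraries with sums of 299 and 88.5, and nothing can be read from 2 libraries. Monocyte and macrophage markers summed to 404 and 438 FPKM in HSCs without and 332 and 336 with RBCs, and to 369 and 281 in LSK cells without and 502 and 620 with RBCs, with C1qa at 0 in all 8 libraries. Single markers of this list did not share a direction in HSCs. Lyz2, the largest, was at 312 and 321 FPKM there without and 221 and 218 with RBCs. Csf1r was at 2.53 and 2.81 FPKM in HSCs without and 7.07 and 9.37 with RBCs, and Ccr2 at 0.840 and 0.976, then 1.87 and 2.09. Erythroid markers summed to between 128 and 355 FPKM with no common direction, and single globin genes differed. Hba-a1, an alpha globin gene, was between 0.0826 and 1.53 FPKM without RBCs and between 32.9 and 116 with RBCs. Hbb-b2, a beta globin gene, was at 279 and 335 FPKM in HSCs without and 120 and 158 with RBCs. In LSK cells it was at 109 and 173 FPKM without and 128 and 54.1 with RBCs. Hbb-b1 was higher with RBCs in HSCs (1.93 and 1.94, then 65.1 and 31.0 FPKM) but lower in LSK cells (0.907 and 2.12, then 0.0438 and 0.0145). Slc4a1, the band 3 gene, was at 0 in 7 of 8 libraries. Platelet markers summed to between 128 and 270 FPKM. B cell markers summed to between 34.8 and 51.8 FPKM, with Pax5 under 0.1 throughout but Cd79b at 34.1 to 51.0. For T and NK cell markers the sums were between 55.3 and 202 FPKM. Of these, the T cell gene Cd3e was under 0.1 FPKM throughout, but Lck was at 10.1 to 15.4 and Nkg7 at 39.8 to 184. The part of any of these cells in the AP-1 values was not tested.

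Genes around AP-1 were taken from lists written from general knowledge, but with earlier results of these data known. For all lists below, counts and p-values are therefore a description and not an independent test. The 30 listed kinases and SRF factors upstream of AP-1 were all tested and none passed the threshold in any comparison (limma), with medians of 0.02 in HSCs and 0.02 in LSK cells for the RBC effect. At an unadjusted p under 0.05 there were 2 in HSCs, against 13.7% of all tested genes, and 8 in LSK cells, against 18.6%. Of the other bZIP partners, 15 of 19 were tested and 1, Jdp2, a Jun partner that represses, rose in LSK cells with RBCs (1.23, SE 0.20, limma adjusted p = 0.013), where 0.9% of all tested genes rose. Its value in HSCs was 0.80 (SE 0.20, adjusted p = 0.084), and the medians of the list were -0.01 and 0.01. Over all tested genes the medians were -0.01 and -0.01.

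Of the other immediate early genes, 23 of 27 were tested. With RBCs, 4 rose past the threshold in LSK cells and none in HSCs, where 0.9% and 0.633% of all tested genes did, and none fell past it. An unadjusted limma p under 0.05 was found for 10 in HSCs, against 13.7% of all tested genes, and for 17 in LSK cells, against 18.6%. The 4 were Egr1 (1.45, SE 0.27), Zfp36, whose protein destabilises cytokine mRNAs (1.37, SE 0.15), Klf2, a factor of quiescent cells (1.26, SE 0.18), and the kinase Sgk1 (1.11, SE 0.16), with limma adjusted p of 0.022 for Egr1, 0.0021 for Zfp36 and 0.0088 for Sgk1. Klf2 was under 1 FPKM in all 4 libraries without RBCs and was tested only because of those with RBCs, so its count is not read as a result. The same genes had values of 0.94, 0.74, 0.68 and 0.17 in HSCs, and none of these genes passed the test of the difference between the cell kinds. Under 2-fold but with a limma adjusted p under 0.05, Dusp6 (0.84, SE 0.11), Zfp36 and Ier2 (0.50, SE 0.10) were higher with RBCs in HSCs. In LSK cells Btg1, Ier2 and Ppp1r15a were higher and Myc lower in the same way. The medians of the list were 0.18 in HSCs and 0.42 in LSK cells. Between the cell kinds, Btg2, an antiproliferative gene, was higher in LSK cells without RBCs (1.16) and with RBCs (1.18), and Egr1 was lower in LSK cells without RBCs (-1.42).

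Known AP-1 target genes did not share a direction. Of 32 listed, 24 were tested. In HSCs with RBCs, Spp1, which encodes osteopontin, rose by 2.24 (SE 0.29, limma adjusted p = 0.0043), and none fell, so that 1 of 24 was called, against 0.775% of all tested genes. In LSK cells with RBCs 3 of 24 were called, against 1.01%. Vegfa rose by 1.66 (SE 0.13, adjusted p = 0.00038 by limma), while Nqo1, an antioxidant enzyme, fell by 1.90 (SE 0.20, adjusted p = 0.0013). The other was Mmp9, also on the neutrophil list, with a value of 1.53 (SE 0.21). It reached 1 FPKM only in the LSK libraries with RBCs (3.91 and 2.92 FPKM) and was tested only because of them, so nothing is read from its calls. In HSCs Vegfa had a value of 0.90 (SE 0.13, limma adjusted p = 0.0069), under 2-fold, and Nqo1 one of -0.62 (SE 0.20, adjusted p = 0.18). The medians of the list were 0.03 in HSCs and -0.16 in LSK cells. Without RBCs, Cd69, Hmox1 and Il1b were higher in LSK cells than in HSCs and Bcl3 was lower, 4 of 24 against 2.66% of all tested genes. With RBCs, Cd69, Lgals3, Mmp9 and Vegfa were higher and Ccnd1 and Spp1 lower, 6 of 24 against 3.61%.

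**Figure D5:**
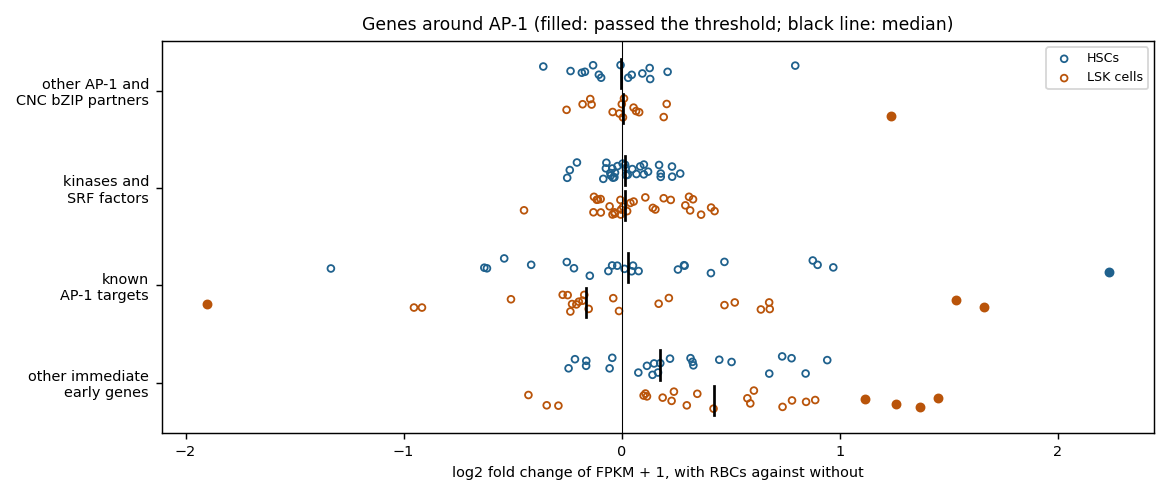
Log2 fold changes of FPKM + 1 with RBCs against without, for the tested genes of 4 lists around AP-1, in HSCs (blue) and LSK cells (orange); filled points passed the threshold, open points did not, and black lines are medians. The immediate early genes have medians of 0.18 and 0.42, and the kinases and SRF factors have no filled point.

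Genes whose pattern over the 8 libraries was most like that of Fos, Jun and Junb were listed by Pearson's r of log2(FPKM + 1), as a description of libraries that share 4 groups. For Fos these were Zfp36 (r = 0.986), Txnip (0.979), Dusp22 (0.977), Ift43 (0.976) and Klf2 (0.973). Jun was closest to Slc18a2 (r = 0.970), Hmgcs1 (0.969), Tmem198b (0.967), Hsd11b2 (0.964) and Samd5 (0.957). Junb was closest to B3galnt1 (r = 0.983), Txnip (0.969), Tsc22d1 (0.945), Hsd11b2 (0.944) and Gemin8 (0.942). Txnip was thus on the lists of Fos and Junb, and Hsd11b2 on those of Jun and Junb.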

How the data were processed

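HSCs and LSK cells cultured with or without RBCs gave 8 libraries, grouped by the sample labels. Full-length cDNA was made with a SMART-Seq HT kit, tagmented with Nextera XT and sequenced on a HiSeq instrument. One FPKM value per gene and library was deposited by the authors, without pooling replicates, and the submitters' processing notes name TopHat2 2.1.1, Bowtie2 2.2.8, SAMtools 0.1.18, Cuffdiff 2.2.1 and the mm10 build. Whether counting used strand is not given in the sources used here, and full-length cDNA of this kind carries no strand mark.

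From the deposited values, log2(FPKM + 1) was computed for the 12003 genes with at least 1 FPKM in at least 2 libraries. Group means were fitted together with limma 3.58.1 (R 4.3.3) and a mean-variance trend, on 4 residual and 5.18 prior degrees of freedom, and p-values were adjusted over all tested genes by the Benjamini-Hochberg method. A gene was called at 2-fold or more with an adjusted p under 0.05. An exact permutation of 2 against 2 libraries cannot go below p = 0.333. The procedure was tested on simulated data. Fosb and Atf3 did not pass the filter.

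Relative depth came from low-expressed genes, of which 2880 of 4301 (67.0%) fitted whole numbers of a step within 0.1 read. The members and lists were chosen with earlier results of these data known. Named genes are the members, list genes called in any comparison, and the 5 genes closest in pattern to Fos, Jun and Junb. Ccdc85b and Prdx2 were added after their overlap was seen. Promoter windows came from RefSeq (9 of 10 members matched, 11 windows). Replicate numbers were shared between groups, and no source states whether equal numbers mark a shared origin. Alternatives covered the pseudocount, filter, scaling, trend, threshold, samples fitted, replicate block and omission of each library.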

Additional observations from a re-analysis of the deposited data

Results flagged for a closer look

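Fosl2 libraries lay in opposite directions in the 2 cell kinds, at low levels. Both HSC libraries with RBCs lay below both without (1.02 and 1.11 against 1.64 and 2.16 FPKM), while both LSK libraries with RBCs lay above both without (0.956 and 0.787 against 0.740 and 0.399 FPKM). Libraries were apart in this way, in either direction, for 41.7% of all tested genes in HSCs and 50.7% in LSK cells. LSK cells held 55 and 33 reads of Fosl2 without RBCs and 63 and 55 with RBCs. Fosl2 was tested only because of its HSC values. The fitted difference of the RBC effects, HSCs minus LSK cells, was -0.75 (SE 0.27) on the log2 scale and did not pass the threshold. It is a description, since the members were chosen with the RBC effects known.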

How the results depend on the processing

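The count of members called was 1 in HSCs and 3 in LSK cells for the RBC effect, 0 and 1 for LSK cells against HSCs without and with RBCs, and 0 for the difference of the RBC effects. Of all 12003 tested genes, 93, 121, 319, 433 and 13 were called, in the same order. Nothing is read from the counts of members, since the members were chosen with these contrasts in view. In HSCs the count was 2 with a pseudocount of 0.1 or 0.5, quantile normalization or rescaling to equal FPKM sums, and 3 without the fold threshold. Over all tested genes, 113, 111, 94 and 106 were called with the first 4 of these settings. In LSK cells the count of members was 2 with all genes above 0 tested, where 70 of 18967 genes were called, and 4 without the fold threshold. For the RBC effects without the fold threshold, the share of all genes is not given here. Leaving out each library gave 1 to 2 in HSCs and 2 to 3 in LSK cells. For LSK cells against HSCs without RBCs the count was 1 with a pseudocount of 0.1 or 0.5 or after rescaling, 3 without the fold threshold and 0 to 2 without each library. With RBCs it was 0 with upper-quartile scaling, 3 without the fold threshold and 0 to 1 without each library. The difference of the RBC effects gave 1 (Fos) with quantile normalization and 0 to 1 without each library. Over all tested genes, LSK cells against HSCs without RBCs gave 485 and 437 calls with a pseudocount of 0.1 and 0.5, and 371 after rescaling. With RBCs, upper-quartile scaling gave 457. Without the fold threshold, 14.2% of all tested genes passed without RBCs and 24.4% with RBCs. Quantile normalization gave 20 calls for the difference of the RBC effects. The cause of these shifts was not tested.

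Small values changed sign. For the RBC effect, leaving out each library gave -0.24 to 0.042 for Jund in HSCs and -0.081 to 0.16 for Batf in LSK cells, and Jund in HSCs became 0.0081 with upper-quartile scaling. For LSK cells against HSCs without RBCs, Jun became -0.035 with upper-quartile scaling and ranged from -0.21 to 0.26 when each library was left out, and Fosl1 ranged from -0.14 to 0.054. With RBCs, Maff became 0.0073 after rescaling and ranged from -0.13 to 0.096, and Junb ranged from -0.12 to 0.023. Where a library was left out, the lone sample was assumed to vary like the other groups. With a replicate block the counts were 1, 3, 0, 1 and 0, in the order above, the same as without it. Same-numbered libraries deviated with correlations of -0.07 to 0.10. With 2 libraries per group these values cannot show whether equal numbers mark a shared origin. Absolute depth is unknown, and the low reads of Fosb and Atf3 limit what can be said of them.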
